A study of Mus musculus with 42 samples.

Results

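Sim1, Otp, Arnt2 and Fezf2 are transcription factor genes that mark or build the neurons of the paraventricular nucleus of the hypothalamus (PVN). They were picked by name, and their Ensembl IDs were found in 4 rows of a table of 37907 genes. RNA was measured in the PVN and in 3 neighbouring nuclei, the dorsomedial (DMH) and ventromedial hypothalamus (VMH) and the arcuate nucleus (ARC). All mice were adult wild-type C57/BL6 males. Those called fed had food ad libitum, and those called fasted had none for 24 hours before dissection. Of 42 libraries, 22 were from fed mice (ARC 5, VMH 6, DMH 5, PVN 6) and 20 from fasted mice (ARC 5, VMH 6, DMH 4, PVN 5). The nuclei were cut from stained sections by laser capture, so a library holds every cell type of the cut piece, and a lower level can mean fewer cells that express the gene or less RNA per cell. These cannot be told apart here.

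SIM1 belongs to the bHLH-PAS family, proteins that bind DNA as pairs, and ARNT2 is its partner in the developing hypothalamus. OTP is a homeodomain protein that acts beside them. Mice that lack any of these 3 factors fail to form the neuroendocrine neurons of the PVN, which make oxytocin, vasopressin, corticotropin-releasing hormone, thyrotropin-releasing hormone and somatostatin, and loss of a Sim1 copy causes obesity. FEZF2 is a zinc finger repressor known best from the deep-layer projection neurons of the cortex and from the early forebrain. FEZF1, its close relative, is needed for the VMH.

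On the mouse build GRCm38, Sim1 (ENSMUSG00000019913) lies on chromosome 10 from 50894754 to 50989152 on the plus strand. Otp (ENSMUSG00000021685) lies on chromosome 13 from 94875602 to 94885130 on the plus strand. Arnt2 (ENSMUSG00000015709) lies on chromosome 7 from 84246278 to 84410176 on the minus strand, and 2.78% of its exon length overlaps an antisense gene, whose reads cannot be told apart without strand information. Fezf2 (ENSMUSG00000021743) lies on chromosome 14 from 12342094 to 12348189 on the minus strand. The bases upstream of the RefSeq start of each gene are shown up to the first base of an annotated exon, to show how the members differ there. Those of Otp and Arnt2 lie just outside the gene spans given above, and those of Sim1 and Fezf2 lie inside them, since RefSeq places these starts further downstream. They are from RefSeq on GRCm38.p6, written 5′ to 3′ in the direction of transcription, and capitals mark a GC box (GGGCGG on either strand).
Sim1, chr10:50895401-50895472, plus strand: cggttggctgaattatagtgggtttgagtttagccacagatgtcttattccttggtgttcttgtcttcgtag
Otp, chr13:94875386-94875601, plus strand: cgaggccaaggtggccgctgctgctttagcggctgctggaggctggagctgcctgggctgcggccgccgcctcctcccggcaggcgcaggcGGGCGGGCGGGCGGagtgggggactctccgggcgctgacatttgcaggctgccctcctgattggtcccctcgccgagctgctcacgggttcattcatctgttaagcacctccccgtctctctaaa
Arnt2, chr7:84410177-84410288, minus strand: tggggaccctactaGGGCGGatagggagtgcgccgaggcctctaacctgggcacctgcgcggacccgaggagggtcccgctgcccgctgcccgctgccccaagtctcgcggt
Fezf2, chr14:12345960-12346115, minus strand: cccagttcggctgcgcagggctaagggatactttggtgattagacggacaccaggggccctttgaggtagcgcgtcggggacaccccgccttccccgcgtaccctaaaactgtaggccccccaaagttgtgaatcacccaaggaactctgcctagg

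The 4 genes differ in these bases. Over the full RefSeq windows, 250 bases before to 50 after the start, the GC share was 46.0% for Sim1, 58.7% for Otp, 61.3% for Fezf2 and 76.7% for Arnt2, against a median of 53.0% over 32544 windows of that length. Arnt2, the gene with the broadest expression of the 4, also held the most CG pairs (40, against 13 in Sim1). A GC box was in 3 of the 4 windows, all but that of Sim1, and in 35.9% of all windows. The core bound by SIM1 with ARNT2 (TACGTG) and the homeodomain core (TAATTA), searched on both strands, were in 0 of the 4 windows and in 3.24% and 5.29% of all windows.

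The unit of the deposited values is RPKM, which divides the reads of a gene by its length and by the depth of the library. A small number of reads had been added to every value before this scaling, so a gene without reads is not at 0. The reads behind each value could be recovered, and they are given below because they set the precision. A gene without reads stood, as the mean over 3 batches of libraries, at 0.149 RPKM for Sim1, 0.183 RPKM for Arnt2, 0.475 RPKM for Fezf2 and 0.926 RPKM for Otp, the shortest of the 4. Depth was estimated at 1.33 to 13.2 M reads a library, where M is mega.

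Sim1 was high in the PVN, low in the DMH and close to its no-read value in the ARC and VMH. In fed mice the PVN libraries held 18.3, 16.9, 25.5, 16.8, 17.6 and 19.3 RPKM. The DMH libraries held 0.788, 2.19, 1.54, 1.56 and 1.80 RPKM, so the groups did not overlap. Fed ARC libraries ranged from 0.176 to 0.325 RPKM, from 2 to 6 reads each, and fed VMH libraries from 0.158 to 0.356 RPKM, from 0 to 5 reads. Summed over the group, 3980 reads fell on Sim1 in the fed PVN and 216 in the fed DMH, 19 in the ARC and 14 in the VMH. Divided by depth, these were 144 reads per M in the PVN, 11.1 per M in the DMH, 0.848 per M in ARC libraries and 0.729 per M in VMH libraries. The PVN level of Sim1 in fed mice was known when the genes were chosen and is given without a test.

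In fasted mice, where the comparison was tested, the order was the same at the top. Fasted PVN libraries held 11.4, 17.4, 20.7, 14.1 and 17.8 RPKM of Sim1, and fasted DMH libraries held 1.12, 2.06, 2.21 and 2.05 RPKM. Each PVN library was above each DMH library. The PVN was higher than the ARC by 3.71 on the log2(RPKM + 1) scale (SE 0.14, limma adjusted p = 2.28e-20), than the VMH by 3.55 (SE 0.13, limma adjusted p = 2.34e-20) and than the DMH by 2.59 (SE 0.14, limma adjusted p = 8.41e-15). Of 33579 genes tested, 2.2% were called higher in the PVN than in the ARC, 4.74% than in the VMH and 1.36% than in the DMH, at an adjusted p under 0.1. The DMH in turn was above the VMH by 0.96 (two-sided exact permutation p = 0.00476, adjusted over 18 tests of neighbouring nuclei p = 0.0179), with no overlap between 1.12 to 2.21 and 0.238 to 0.780 RPKM. The VMH and ARC, next in the order, overlapped (exact permutation adjusted p = 0.258).

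**Figure D1:**
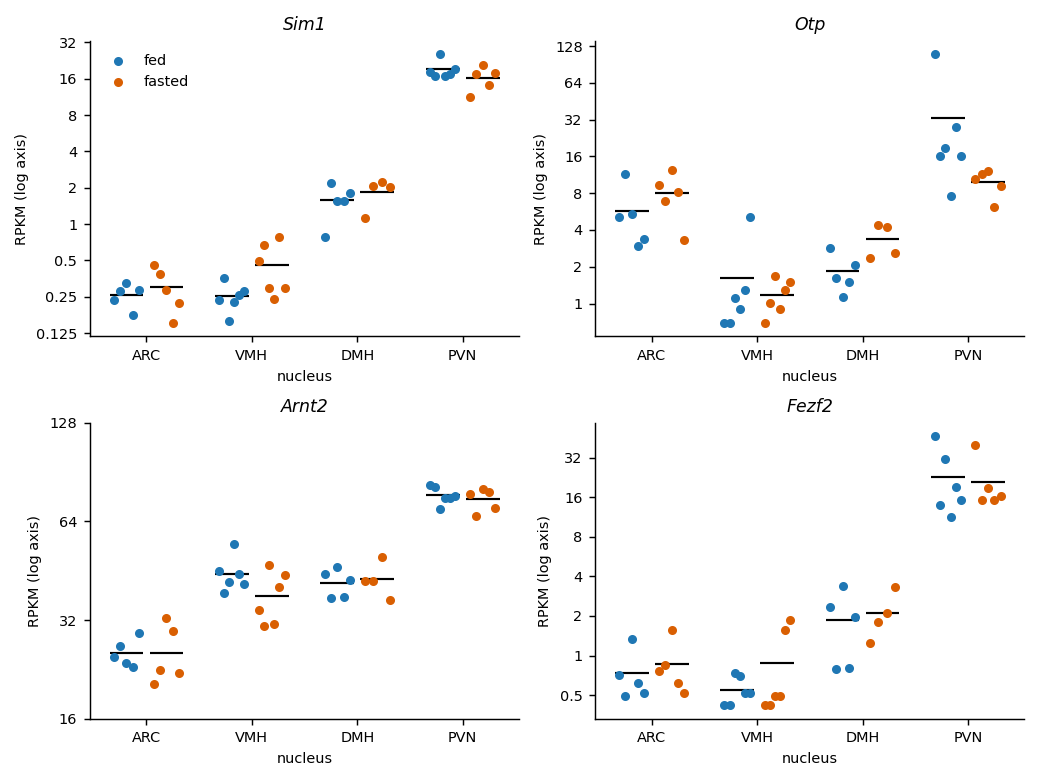
RPKM of Sim1, Otp, Arnt2 and Fezf2 on log axes in each of 42 libraries, by nucleus, with fed mice in blue and fasted mice in orange. A point is a library and a black line is the group mean. Sim1 and Fezf2 stand apart in the PVN, Arnt2 is present in every nucleus, and Otp is shared between PVN and ARC, with 1 fed PVN library at 109.9 RPKM.

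Arnt2, the partner of SIM1, was expressed in every nucleus and was highest in the PVN. Fed PVN libraries held 82.5, 81.3, 69.7, 75.4, 75.6 and 76.7 RPKM, and fasted ones held 77.8, 66.6, 80.6, 78.5 and 70.2 RPKM. No library of another nucleus reached these values. Fed VMH libraries ranged from 38.6 to 54.7 RPKM, fed DMH libraries from 37.4 to 46.4 RPKM and fed ARC libraries from 23.1 to 29.3 RPKM. In fasted mice the ranges were 30.7 to 47.1 RPKM in the VMH, 36.9 to 49.9 RPKM in the DMH and 20.5 to 32.4 RPKM in the ARC. The VMH and DMH overlapped in both states (exact permutation adjusted p = 0.477 in fed and 0.306 in fasted mice), and the ARC was the lowest, without overlap in fed mice and overlapping with the VMH in fasted mice (exact permutation adjusted p = 0.0234).

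In fed mice Arnt2 was higher in the PVN than in the ARC by 1.56 on the log2(RPKM + 1) scale (SE 0.11, limma adjusted p = 7.15e-13), than in the VMH by 0.79 (SE 0.10, limma adjusted p = 7.37e-07) and than in the DMH by 0.87 (SE 0.11, limma adjusted p = 9.81e-07). The share of all genes called higher in the PVN of fed mice was 2.22% against the ARC, 4.96% against the VMH and 1.73% against the DMH. In fasted mice the differences were 1.54, 0.97 and 0.79, each called (limma adjusted p = 3.43e-12, 2.87e-08 and 4.38e-05). As a ratio of mean RPKM, the fed PVN held 3.02 times the level of the ARC, 1.74 times that of the VMH and 1.85 times that of the DMH. For Sim1 the same ratios were 73.2, 75.6 and 12.1, with the ARC and VMH levels close to the no-read value.

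The ratio of the partners in a library followed from this. In the PVN the RPKM of Arnt2 was 2.73 to 4.80 times that of Sim1 in fed and 3.84 to 6.85 times in fasted libraries. In the DMH it was 17.0 to 56.1 times in fed and 18.0 to 37.7 times in fasted libraries. In the ARC and VMH, where Sim1 rested on a few reads, it was 44.4 to 265 times. Within the PVN no library had more Sim1 than Arnt2.

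**Figure D2:**
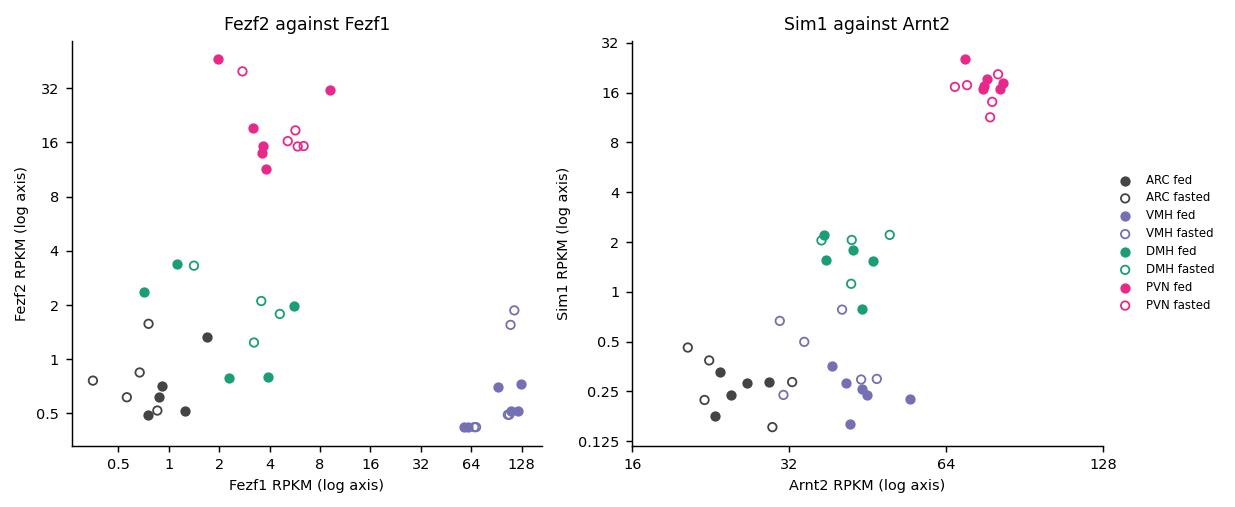
Fezf2 against Fezf1 (left) and Sim1 against Arnt2 (right), RPKM on log axes, with a point for each of 42 libraries, coloured by nucleus and filled for fed mice. PVN libraries held 11.4 to 46.5 RPKM of Fezf2 and 1.97 to 9.18 RPKM of Fezf1, VMH libraries 57.8 to 126 RPKM of Fezf1, and the PVN stands apart from the other nuclei on both axes of the right panel.

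The other members of the bHLH-PAS family, which include the clock and hypoxia factors, set this in context. Of 16 family genes, 15 were tested. In fasted mice 3 were higher in the PVN than in the ARC (Sim1, Sim2 and Arnt2), 3 were higher and 1 lower than in the VMH (Sim1, Sim2 and Arnt2 up, Npas1 down), and 2 were higher than in the DMH (Sim1 and Arnt2). These counts include the members Sim1 and Arnt2 themselves. Over all genes 2.2%, 4.74% and 1.36% were called higher in the PVN, and 1511 of 33579 were called lower than in the VMH. The median difference over the 15 genes was 0.22, -0.07 and 0.05, against 0 over all genes in each comparison. Arnt, the general partner of the family, had group means of 5.55 to 7.28 RPKM with no call in these comparisons. In fed mice 4 family genes were higher in the PVN than in the ARC, with Epas1, a hypoxia factor, as the fourth (0.51, limma adjusted p = 0.0168). Against the fed VMH 3 were higher, and against the fed DMH 2. Over all genes 2.22%, 4.96% and 1.73% were called higher in the fed PVN than in the ARC, VMH and DMH.

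Sim2, the closest relative of Sim1, was low and rested in part on 1 library. Fasted PVN library 1 held 12.3 RPKM of Sim2, while the other 4 held at most 1.48 RPKM. The fasted ARC libraries lay between 0.263 and 0.424 RPKM. The fasted difference between PVN and ARC was 1.21 (limma adjusted p = 0.0137) and fell to 0.68 without that library (limma adjusted p = 0.0197). Against the VMH it was 1.17 (limma adjusted p = 0.00637) and 0.64 without it (limma adjusted p = 0.0128). In fed mice Sim2 was 0.94 higher in the PVN than in the ARC (limma adjusted p = 0.0715) and 0.91 higher than in the VMH (limma adjusted p = 0.0333), and without fed PVN library 2 both calls were lost (limma adjusted p = 0.209 and 0.118). The first of them was lost without any of 8 libraries (limma adjusted p = 0.101 to 0.209). The Npas1 difference was -0.76 (limma adjusted p = 0.0486), a call lost without fasted PVN library 2 or fasted VMH library 4 or 6 (limma adjusted p = 0.106 to 0.155).

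Fezf2 had a pattern close to that of Sim1, with more spread inside the PVN. Fed PVN libraries held 46.5, 13.9, 31.4, 11.4, 19.3 and 15.2 RPKM of Fezf2, and fasted ones held 39.7, 15.2, 18.7, 15.3 and 16.3 RPKM. Library 1 was the highest in either state, by a wide gap in fasted mice. DMH libraries ranged from 0.789 to 3.36 RPKM in fed and 1.24 to 3.31 RPKM in fasted mice, on 3 to 78 reads each. ARC libraries ranged from 0.492 to 1.57 RPKM over both states, on 0 to 11 reads. In the VMH, 4 of 6 fed and 4 of 6 fasted libraries had no read of Fezf2, while fasted libraries 5 and 6 held 9 and 16 reads. Divided by depth, the summed reads were 52.3 per M in the fed PVN, 2.81 per M in the DMH, 0.536 per M in ARC libraries and 0.208 per M in VMH libraries, the last from 4 reads. The fed levels, too, were known at the choice of genes and are not tested.

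In fasted mice Fezf2 was higher in the PVN than in the ARC by 3.49 (SE 0.30, limma adjusted p = 1.05e-10), than in the VMH by 3.52 (SE 0.28, limma adjusted p = 1.42e-11) and than in the DMH by 2.76 (SE 0.31, limma adjusted p = 2.05e-07). No PVN library overlapped with another nucleus. The fasted DMH lay above the ARC by 0.72 (exact permutation adjusted p = 0.0390), with overlapping ranges, and ARC and VMH did not differ beyond their spread (exact permutation adjusted p = 0.931).

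The FEZ family pair split between nuclei. Fezf1 had medians of 101 RPKM (57.8 to 126, n = 6) in the fed and 107 RPKM (66.6 to 116, n = 6) in the fasted VMH, against 3.64 RPKM (1.97 to 9.18, n = 6) and 5.70 RPKM (2.75 to 6.38, n = 5) in the PVN. It was lower in the PVN than in the VMH by 3.97 in fasted and 4.24 in fed mice (log2 differences of -3.97 and -4.24, limma adjusted p = 1.47e-12 and 6.56e-14). It was higher in the PVN than in the ARC, by 1.88 in fasted and 1.23 in fed mice (limma adjusted p = 5.92e-05 and 0.00813). The ratio of Fezf1 to Fezf2 ran from 61.9 to 234 in VMH libraries and from 0.0424 to 0.417 in PVN libraries, with no overlap. In the DMH both were low and the ratio ran from 0.302 to 4.88.

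Otp was shared by the PVN and the ARC. Fed PVN libraries held 109.9, 16.2, 18.7, 7.55, 27.8 and 16.1 RPKM, and fed ARC libraries held 5.11, 11.5, 5.43, 2.97 and 3.36 RPKM. The ranges overlapped, since PVN library 4 lay below ARC library 2. Fasted PVN libraries held 10.4, 11.4, 12.2, 6.22 and 9.24 RPKM, and fasted ARC libraries held 9.29, 6.87, 12.3, 8.17 and 3.29 RPKM. In fasted mice the range of the PVN lay inside that of the ARC. DMH libraries ranged from 1.13 to 2.83 RPKM in fed and 2.37 to 4.42 RPKM in fasted mice, on 1 to 21 reads each. In the VMH, 4 of 6 fed and 3 of 6 fasted libraries had no read of Otp.

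Against the ARC, Otp was 1.93 higher in the PVN of fed mice (SE 0.40, limma adjusted p = 0.00184) and 0.34 higher in the PVN of fasted mice (SE 0.42, 95% interval -0.51 to 1.18, limma adjusted p = 1). The fed call was lost when the model was fitted on these 2 groups only (limma adjusted p = 0.208), and the difference was 1.48 without fed PVN library 1 (limma adjusted p = 0.0043). Against the VMH it was 3.32 higher in fed (SE 0.38, limma adjusted p = 4.19e-08) and 2.31 in fasted mice (SE 0.40, limma adjusted p = 7.95e-05). Against the DMH it was 3.07 higher in fed mice (SE 0.40, limma adjusted p = 1.96e-06). In fasted mice that difference was 1.31 (SE 0.44, limma adjusted p = 0.147), and 0.0499 was the adjusted p when only these 2 groups were fitted. Counted over the tests, 3 of 4 members were called higher in the fasted PVN than in the ARC, 4 of 4 than in the VMH and 3 of 4 than in the DMH, to be read against the 2.2%, 4.74% and 1.36% of all genes. Within batches of libraries in fasted mice, the PVN was higher in 8 of 8 comparisons for each member, by 0.14 to 2.63 for Otp, 0.78 to 1.88 for Arnt2, 2.43 to 3.98 for Sim1 and by up to 4.84 for Fezf2. For Otp in fed mice against the ARC the value in batch 2 was 0.53. The ARC itself was above the DMH by 1.14 in fed mice, with no overlap (exact permutation p = 0.00794, adjusted p = 0.0179). With the batch adjustment of the authors undone, the ranges overlapped (ARC 2.14 to 11.9 RPKM, DMH 1.09 to 3.77 RPKM). The exact permutation p was then 0.0397 before adjustment over tests.

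**Figure D3:**
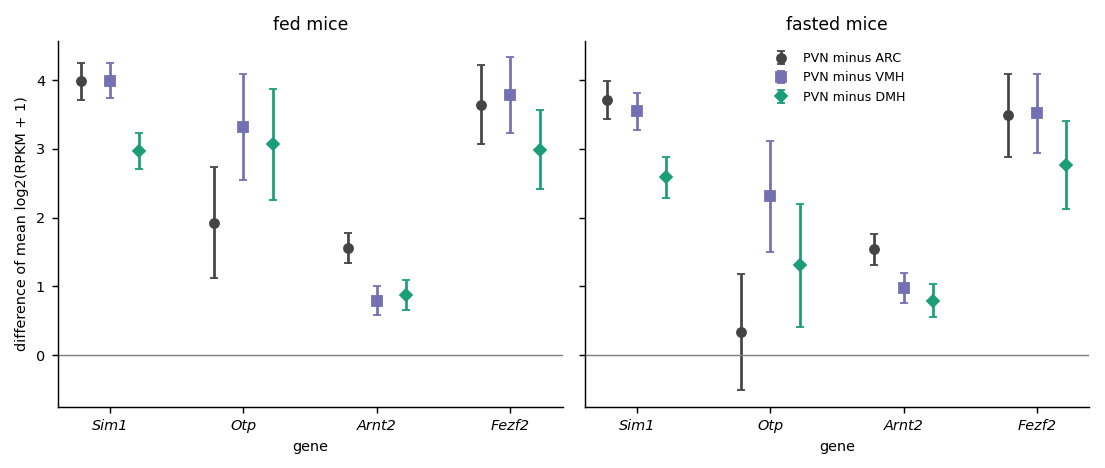
Difference between the PVN and each other nucleus in mean log2(RPKM + 1), with 95% intervals from the limma fit, in fed (left) and fasted (right) mice. The fasted difference of Otp against the ARC spans 0, the differences of Arnt2 lie between 0.79 and 1.56, and those of Sim1 and Fezf2 lie between 2.59 and 3.99. The fed levels of Sim1 and Fezf2 were known when the genes were chosen, so their fed differences and intervals are a description and not a test.

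The genes of PVN neuroendocrine neurons also check the dissection. Of 7 listed genes, 5 were higher in the fasted PVN than in the ARC (Pou3f2, Avp, Oxt, Crh and Trh), all 7 were higher than in the VMH (also Sst and Mc4r), and 5 were higher than in the DMH (Pou3f2, Avp, Oxt, Crh and Sst). The median differences were 3.39, 3.57 and 2.06. The shares of all genes called higher in the fasted PVN were 2.2%, 4.74% and 1.36%. In fed mice the counts were 5, 6 and 6, against 2.22%, 4.96% and 1.73% of all genes. Sst and Mc4r were not called against the ARC in either state. Sst ranged from 1675 to 2480 RPKM in fasted ARC and from 886 to 1994 RPKM in fasted PVN libraries. In fed mice it ranged from 1383 to 1744 RPKM in the ARC and from 562 to 2103 RPKM in the PVN. Pou3f2, the POU factor that acts downstream of SIM1 with ARNT2, was at 19.0 ± 3.18 RPKM (SD, n = 6) in the fed and 15.1 ± 5.35 RPKM (n = 5) in the fasted PVN, and its DMH libraries ranged from 1.87 to 5.84 RPKM. The peptide genes Oxt and Avp, which mark PVN and neighbouring magnocellular neurons, had DMH means of 20.8 and 6.40 RPKM in fed mice, VMH means of 11.8 and 5.51 RPKM and ARC means of 51.4 and 25.3 RPKM, against 4066 and 2113 RPKM in the PVN. The Mc4r call against the VMH (1.11) was lost without any of 5 libraries, fasted PVN 2 and 4 and fasted VMH 1, 2 and 6 (limma adjusted p = 0.113 to 0.254). The Trh call against the fed DMH (1.27) was lost without any of 6, fed PVN 1, 2 and 3 and fed DMH 2, 3 and 4 (limma adjusted p = 0.109 to 0.148).

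Markers of other tissue were checked beside these results. Of the genes of cortical projection neurons, another site of Fezf2, 5 are given here. Bcl11b ranged from 0.280 to 1.33 RPKM in PVN libraries and from 0.179 to 2.62 RPKM elsewhere, and Tbr1 from 0.249 to 1.71 RPKM and from 0.175 to 1.99 RPKM. Neurod6 was at most 0.811 RPKM in the PVN and 1.94 RPKM elsewhere, Cux2 at most 3.47 and 4.92 RPKM, and Tle4 at most 27.8 and 36.0 RPKM. Each of these 5 genes overlapped between the PVN and the other nuclei, and Bcl11b, Tbr1 and Neurod6 were low everywhere. Their relation to the Fezf2 level was not tested. In fasted mice Tle4 was lower in the PVN than in the ARC and Neurod6 lower than in the DMH (log2 differences of -0.73 and -0.56, limma adjusted p = 0.0122 and 0.0891), and in fed mice Tle4 was higher in the PVN than in the VMH (0.48, limma adjusted p = 0.0697). The 5 thalamus genes summed to 11.6 to 19.3 RPKM in the PVN and 9.62 to 28.9 RPKM elsewhere. The 4 endothelial genes did move with the PVN, at 39.6 to 60.7 RPKM against at most 39.2 RPKM elsewhere, and in fasted mice 4 of 4 were called higher than in the ARC, 2 than in the VMH and 0 than in the DMH. The shares of all genes called higher there were 2.2%, 4.74% and 1.36%. The 5 neuron genes summed to 692 to 856 RPKM in the PVN, 475 to 616 RPKM in the ARC and 987 to 1317 RPKM in the VMH, and in fasted mice 3 were called higher in the PVN than in the ARC, 3 lower than in the VMH and 2 lower than in the DMH. Of all 33579 genes, 740 were higher in the fasted PVN than in the ARC, 1511 lower than in the VMH and 554 lower than in the DMH. The 5 oligodendrocyte genes summed to 70.2 to 114 RPKM in the PVN and 157 to 286 RPKM in the VMH. Their part in the results was not tested. The 3 VMH markers summed to 2.58 to 10.3 RPKM in the PVN and 71.6 to 172 RPKM in the VMH, and the ARC markers to 15.0 to 31.9 RPKM in the PVN and 864 to 2407 RPKM in the ARC.

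Fed and fasted mice were then compared within each nucleus. Neither Sim1, Otp, Arnt2 nor Fezf2 passed the threshold in any nucleus. Over all genes the share called was 0.0566% for the ARC, 0.131% for the VMH, 0.0238% for the DMH and 0.0715% for the PVN, so few genes of any kind passed. Of the 16 limma tests, 0 were called and 2 had an unadjusted p under 0.05, Otp in the PVN and Arnt2 in the VMH. Of all 33579 genes, 1857 in the PVN and 2455 in the VMH had an unadjusted p under 0.05. For Arnt2 the intervals were narrow. Its fasted minus fed difference in the PVN was -0.04 (SE 0.11, 95% interval -0.26 to 0.18), and in the VMH it was -0.23 (95% interval -0.44 to -0.02, limma adjusted p = 0.615). For Sim1 it was -0.23 in the PVN (95% interval -0.50 to 0.03) and 0.04 in the ARC (95% interval -0.24 to 0.32). For Fezf2 it was -0.05 in the PVN (95% interval -0.63 to 0.52) and 0.10 in the ARC (95% interval -0.50 to 0.70). In the VMH, Sim1 was 0.21 higher in fasted mice (exact permutation p = 0.0498, adjusted over 16 tests p = 0.266), on 49 reads in 6 fasted against 14 reads in 6 fed libraries.

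The largest difference was that of Otp in the PVN. All 5 fasted libraries were below the fed mean of 32.7 RPKM, but that mean was carried by library 1. The fed median was 17.4 RPKM and the fasted median 10.4 RPKM, and the ranges of 7.55 to 109.9 and 6.22 to 12.2 RPKM overlapped. On the log2(RPKM + 1) scale the fasted minus fed difference was -1.12 (SE 0.40, limma adjusted p = 0.689, exact permutation p = 0.0476, adjusted over 16 tests p = 0.266). Without fed PVN library 1 it was -0.67 (limma adjusted p = 0.931). Within batches the difference was -1.94 in batch 1, which holds that library, -0.02 in batch 2 and -1.37 in batch 3, and batch 1 has 1 fasted and 2 fed PVN libraries.

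**Figure D4:**
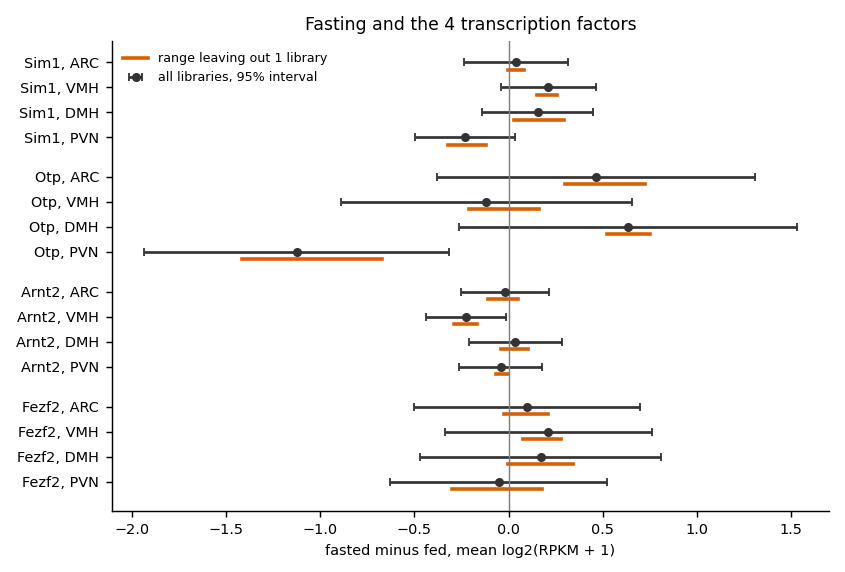
Fasted minus fed difference of the 4 genes in each nucleus on the log2(RPKM + 1) scale, with 95% intervals from the limma fit in black and, in orange, the range when each library is left out in turn. All intervals but those of Otp in the PVN and Arnt2 in the VMH span 0, and the Otp value in the PVN runs from -1.41 to -0.67 when 1 library is left out.

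In the DMH and ARC the Otp values had the other sign and did not pass the test. In the DMH the 4 fasted libraries were all above the fed mean (2.37, 4.42, 4.22 and 2.61 RPKM against a fed mean of 1.83 RPKM), a difference of 0.63 (SE 0.44, limma adjusted p = 1, exact permutation p = 0.0397, adjusted over 16 tests p = 0.266). With the batch adjustment of the authors undone the exact p was 0.143. Within batches the Otp difference in the DMH was 0.86 in batch 2 and 0.64 in batch 3. The DMH is also where depth moved with nutritional state, from 2.94 to 5.05 M reads in the fed and from 4.78 to 13.2 M in the fasted libraries. The 13.2 M is that of fasted DMH library 4, and the other fasted DMH libraries held 4.78 to 6.62 M. With depth as a covariate the Otp difference in the DMH was not called either. Its lowest limma adjusted p over all refits was 0.937. How much of its size goes with depth was not tested. In the ARC the difference was 0.46 (SE 0.42, limma adjusted p = 1). Whether the fasting difference of Otp varied between nuclei was tested by the interaction term, which gave an unadjusted p of 0.0199 and a limma adjusted p of 1. Over all genes 0.00596% passed that test, and neither Sim1, Arnt2 nor Fezf2 did.

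Among the related genes, 1 was called with fasting. Hif3a, a hypoxia-inducible factor of the bHLH-PAS family, was at 0.443 to 1.19 RPKM in fed and 2.61 to 5.21 RPKM in fasted PVN libraries, with no overlap. The difference was 1.41 (SE 0.28, limma adjusted p = 0.0374), and the call was lost without fasted PVN library 1 or fed PVN library 3 or 4 (limma adjusted p = 0.102 to 0.183). In the VMH it was 1.16 (SE 0.27, limma adjusted p = 0.0974), a call that was lost when any of 9 of the 12 libraries was left out (limma adjusted p = 0.113 to 0.213). In the ARC and DMH the differences were 1.05 and 1.16 (limma adjusted p = 0.288 and 0.262). The other 14 family genes tested, Sim1 and Arnt2 included, had differences between -0.49 and 0.80 over the 4 nuclei. For the 7 PVN neuroendocrine genes 0 of 28 fasting tests were called by limma and 2 had an unadjusted p under 0.05, and for the FEZ genes these counts were 0 and 0 of 8. For the bHLH-PAS family 2 of 60 were called, both Hif3a, and 9 had an unadjusted p under 0.05, of which 4 were Hif3a in the 4 nuclei. Of the marker lists, Agrp rose in the ARC, Ppp1r17 rose in the PVN and the astrocyte gene Aqp4 fell in the VMH (log2 differences of 1.61, 1.28 and -0.94, limma adjusted p = 0.0613, 0.0345 and 0.0477). These 3 were not refitted without single libraries.

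The spread inside the PVN was not shared between the 4 genes. The relative SD of the fed libraries was smallest for Arnt2 (76.8 ± 4.63 RPKM, n = 6), followed by Sim1 (19.1 ± 3.29), Fezf2 (22.9 ± 13.5) and Otp (32.7 ± 38.4). Fed library 1, with 754 reads on Otp against 37 to 141 in the others, had 6.78 times the median Otp level of the other 5 and 3.05 times their Fezf2 level, but 1.04 times their Sim1 level and 1.09 times their Arnt2 level. It also had the highest fed values of Trh (204 RPKM, against 71.3 to 183) and Sst (2103 RPKM, against 562 to 1433). Its Pou3f2 (13.7 RPKM, against 17.8 to 22.4) and Mc4r (1.01 RPKM, against 1.41 to 7.61) were the lowest. Avp, Oxt and Crh, the remaining listed neuroendocrine genes, lay within the range of the other 5 libraries. Over 14421 genes with a fed PVN mean of at least 5 RPKM, 2.94% were at least 1 higher on the log2(RPKM + 1) scale in that library than the median of the others. Otp was 11th among them. Fasted library 1 had 2.52 times the median Fezf2 level of the other 4 and the lowest Sim1 level. Its Trh was the highest (155 RPKM, against 81.1 to 103) and its Sst the lowest (886 RPKM, against 1066 to 1994). These libraries were looked at after their values were seen.

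**Figure D5:**
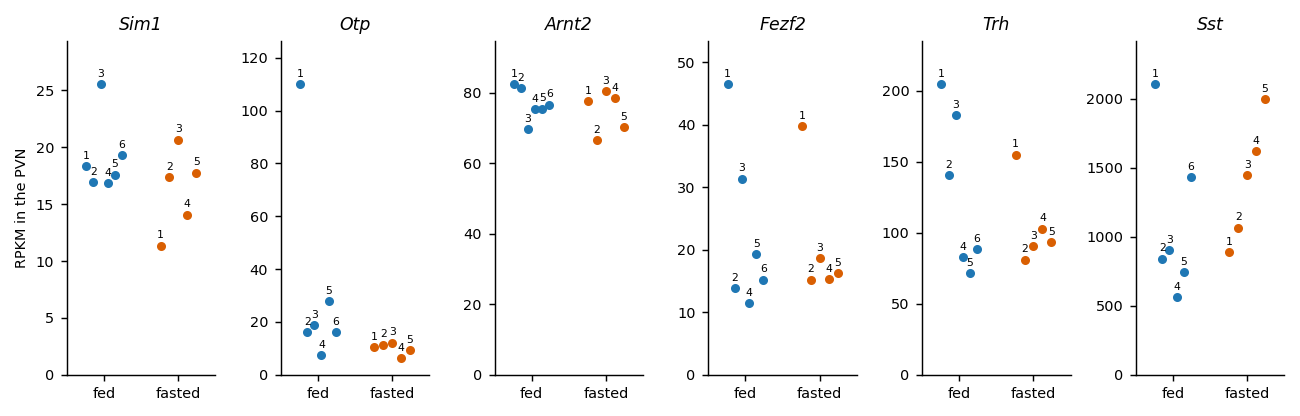
RPKM of the 4 genes and of the peptide genes Trh and Sst in the 6 fed (blue) and 5 fasted (orange) PVN libraries, numbered as in the labels. Fed library 1 is highest for Otp, Arnt2, Fezf2, Trh and Sst and lies between the others for Sim1, and numbers do not pair fed with fasted libraries.

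The genes most like each member over the 42 libraries were named by their Pearson correlation on the log2(RPKM + 1) scale, among 9779 other protein-coding genes with a group mean of at least 5 RPKM. These correlations rest mainly on the difference between nuclei, which all libraries share, and are given as a description. For Sim1 the 5 were Crh (0.968, Spearman 0.804), Uncx (0.959, Spearman 0.764), Fezf2 (0.952, Spearman 0.810), Tns1 (0.950, Spearman 0.586) and Nrn1 (0.947, Spearman 0.851). Uncx encodes a homeodomain factor, and its group means were 10.5 and 8.69 RPKM in the fed and fasted PVN and at most 1.67 RPKM elsewhere. For Fezf2 they were Sim1 (0.952), Uncx (0.939), Crh (0.932), Tns1 (0.932) and Foxb2 (0.924, Spearman 0.712), so 3 genes were on both lists beside the members themselves.

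Arnt2 and Otp had other neighbours. Those of Arnt2 were Grm3 (0.906, Spearman 0.877), Lsamp (0.904, Spearman 0.862), Fign (0.903, Spearman 0.846), Pou3f2 (0.902, Spearman 0.857) and Nos1 (0.900, Spearman 0.849). Lsamp, a neuronal adhesion gene, was also expressed in every nucleus, with group means from 57.2 to 95.3 RPKM. Those of Otp were Pcsk1 (0.867, Spearman 0.873), Caprin2 (0.844, Spearman 0.853), Ptbp3 (0.842, Spearman 0.875), Trp53i11 (0.841, Spearman 0.886) and Shisal2a (0.837, Spearman 0.861). Pcsk1, the prohormone convertase that cuts peptide precursors in ARC and PVN neurons, was at 39.7 and 39.2 RPKM in the fed and fasted PVN, 18.5 and 20.3 RPKM in the ARC and 7.90 to 11.1 RPKM in the VMH and DMH. Sim1 stood 151st among the genes most like Otp, with a Pearson correlation of 0.683, and Arnt2 1208th with 0.425.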

How the data were processed

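Per the labels, nuclei were laser-captured from brain cryosections and the RNA was amplified with the Ovation RNA-Seq System V2 (NuGEN). The submitters' notes name CASAVA 1.7, TopHat2 2.0.11, Cufflinks 2.2.1, edgeR and limma, and the build GRCm38. The values the authors deposited are RPKM. From the table, 5.00 reads in the mean library (1.46 to 14.5) had been added and the means of 3 batches removed on the log scale without regard to the groups. The batches (10, 16 and 16 libraries) were read from shared no-read values, since the labels name none, and batch 1 holds no fasted DMH library. Between 96.5% and 98.8% of low values were whole reads within 0.1 read, which gave depth, and the reads of the 4 genes. Symbols came from GENCODE M21, matching 35965 of 37907 IDs, and no library pair correlated above 0.967.

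The study's methods fitted counts. Because values are RPKM, limma 3.58.1 (R 4.3.3) was fitted to log2(RPKM + 1) with 1 mean for each of 8 groups, an intensity trend and two-sided tests, over 33579 genes with at least 1 RPKM in at least 4 libraries. All 4 members passed. Of the 33579 genes, 4747 stood at the no-read value in every library and passed through the added reads. The shares of all genes called and the medians over all genes include them. Sim1 and Fezf2 were above 1 RPKM in every PVN library. Both also were in the 4 fasted DMH libraries (at least 1.12 and 1.24 RPKM), which alone meet the filter. Benjamini-Hochberg adjusted p under 0.1 is a call. Fold changes understate low genes. Exact permutation tests used Python 3.11.15. Nuclei share mice that the labels do not identify, so tests between nuclei ignore the sharing, and p-values measure the spread between libraries. The members and lists were chosen with earlier results of these data known. Named genes are the members, the called genes of the lists and the 5 genes most like each member. A listed cortical gene is not reported here.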

Additional observations from a re-analysis of the deposited data

Results flagged for a closer look

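In 32 groups of 4 to 6 libraries (4 genes in 8 groups), the gap between the most extreme library and its nearest neighbour was compared with the range of the group. At the 95% level 7 libraries stood apart, where chance gives about 1.6 for normally distributed values. Groups near the no-read value are not so distributed, and the 1.6 does not hold for them. Otp in fed PVN library 1 was at 109.9 RPKM, against 7.55 to 27.8 RPKM in the other 5. Otp in fed ARC library 2 was at 11.5 RPKM, against 2.97 to 5.43 RPKM. Otp in fed VMH library 6 was at 5.08 RPKM, from 5 reads, against 0.694 to 1.28 RPKM. Fezf2 in fasted PVN library 1 was at 39.7 RPKM, against 15.2 to 18.7 RPKM in the other 4. Fezf2 in fed ARC library 3 was at 1.32 RPKM, from 8 reads, against 0.492 to 0.706 RPKM. Sim1 in fed PVN library 3 was at 25.5 RPKM, against 16.8 to 19.3 RPKM. Sim1 in fasted DMH library 1 was the lowest, at 1.12 RPKM against 2.05 to 2.21 RPKM. No Arnt2 library was among the 7.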

How the results depend on the processing

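The PVN differences of Sim1, Arnt2 and Fezf2 in fasted mice, and of Arnt2 in fed mice, kept direction and call in every refit (another pseudocount, filter, scaling, array weights, no trend, depth or replicate as a covariate, 2 groups alone, each library left out). Their size did depend on the pseudocount: over all settings and batches, the fasted PVN minus ARC difference ran from 1.99 to 5.83 for Sim1 and from 2.08 to 4.61 for Fezf2, but from 1.40 to 1.88 for Arnt2, the lowest each with a pseudocount of 5. For fed PVN against ARC the number of members called, of the 2 tested, was 2 in the main test and 1 when only the 2 groups compared were fitted, where Otp was not called (adjusted p = 0.208). Otp against the fasted DMH passed with those 2 groups alone (1.31, adjusted p = 0.0499) and with array weights (1.26, adjusted p = 0.0997). Array weights reversed 2 fasting differences near 0, Sim1 in the ARC (-0.00036) and Fezf2 in the PVN (0.0081). Leaving out 1 library at a time moved fasting differences across 0 for Arnt2 in the ARC (-0.11 to 0.050) and DMH (-0.039 to 0.10), Sim1 in the ARC (-0.0021 to 0.083), Otp in the VMH (-0.21 to 0.16) and Fezf2 in the ARC (-0.024 to 0.21), DMH (-0.00086 to 0.34) and PVN (-0.30 to 0.18). No fasting call appeared in any refit. The cause of these shifts was not tested. Fed and fasted mice were different animals, so the numbers do not pair their libraries by mouse. Deviations of same-numbered libraries from their group means had correlations of -0.12 to 0.05. These cannot decide on pairing, since batch means had been removed and same-numbered libraries often share a batch. With a replicate block, Otp in the PVN differed by -1.05 between fasted and fed mice (adjusted p = 0.889), and no call of a member changed. Undoing the batch adjustment, and fitting log2(RPKM) with or without a batch term, were chosen after seeing the data. Depth limits Sim1 and Fezf2 in the ARC and VMH and Otp in the VMH, where the median library held under 10 reads. The same holds in the fed DMH for Otp (median 2 reads) and Fezf2 (median 9 reads).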
